A study of Rattus norvegicus with 9 samples.

Results

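Mitochondrially encoded respiratory chain genes are the protein-coding genes that stayed in the mitochondrial genome, and 10 of them were examined here: ND1, ND2, ND4, ND5 and ND6 of complex I, CYTB of complex III, COX1, COX2 and COX3 of complex IV, and ATP6 of complex V. They were taken by their upper-case symbols from a count table of 37991 genes, and they were chosen because their share of each library's counts and their change between groups had been seen in these same libraries. Their shares and fold changes are therefore given as a description without a test. RNA sequencing was done on the medial prefrontal cortex (mPFC) of Wistar Kyoto rats, an inbred strain often studied for its passive, depression-like behaviour, and all libraries were taken on day 15. The 3 groups held 3 libraries each: rats that received K4, a compound known here only by its code, through an intravenous cannula for 7 days; rats that received ketamine, an NMDA receptor antagonist, under the skin for 7 days; and untreated rats (Control). Both drugs were then withdrawn for 7 days before collection. The labels give neither a dose nor a vehicle or cannula for Control, and do not say whether a library stands for 1 rat, so route and drug cannot be told apart and p-values measure only the spread between these libraries.

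The mitochondrial genome is transcribed as long RNAs that run over many genes and are then cut apart, largely at the transfer RNAs that lie between the coding genes. Most of the resulting mRNAs receive short poly(A) tails inside the organelle. Proteins made from the mRNAs form the core of respiratory complexes whose remaining subunits are encoded in the nucleus and imported. Neurons and astrocytes of the cortex both depend on these complexes for ATP. All but ND6 of the genes examined are read from the same strand; ND6 lies on the opposite one and faces its neighbours.

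Library totals ranged from 27122207 to 42731004 counts and were higher in every Control library than in every drug library. Neuronal markers such as Snap25 and Syt1 were abundant, and markers of striatal neurons, whose summed level over 5 genes was 77.5 to 109 CPM (normalised read counts, scaled by edgeR's TMM factors to a common library size), were low throughout. Slopes of log2 count over transcript length, taken relative to each gene's mean over the 9 libraries, were 0.002 to −0.02 in K4, −0.02 to −0.07 in Ketamine and 0.04 to 0.07 in Control, so Control libraries held relatively more counts from long transcripts. The ribosomal precursor Rn45s had 157 to 1408 CPM in K4, 123 to 758 CPM in Ketamine and 72.7 to 88.2 CPM in Control, as shares of the raw library total.

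Mitochondrially encoded mRNAs made up a large part of every library. The 10 genes together took 10.1%, 10.8% and 9.91% of all counts in K4 libraries 1 to 3, 11.1%, 10.1% and 11.2% in Ketamine libraries 1 to 3, and 13.8%, 17.9% and 11.04% in Control libraries 1 to 3. Control 2 was by far the highest and Control 3 the lowest of its group; all Control libraries stood above all K4 libraries, whereas Control 3 lay below Ketamine 1 and Ketamine 3, so those groups overlapped. The mean share was 10.3% ± 0.485 in K4, 10.8% ± 0.596 in Ketamine and 14.3% ± 3.48 in Control (SD, n = 3 libraries each). The spread among Control libraries was thus several times that in either drug group, and without Control 2 the Control mean was 12.4%. In bulk tissue, fewer cells of a type and less RNA per cell cannot be told apart.

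**Figure D1:**
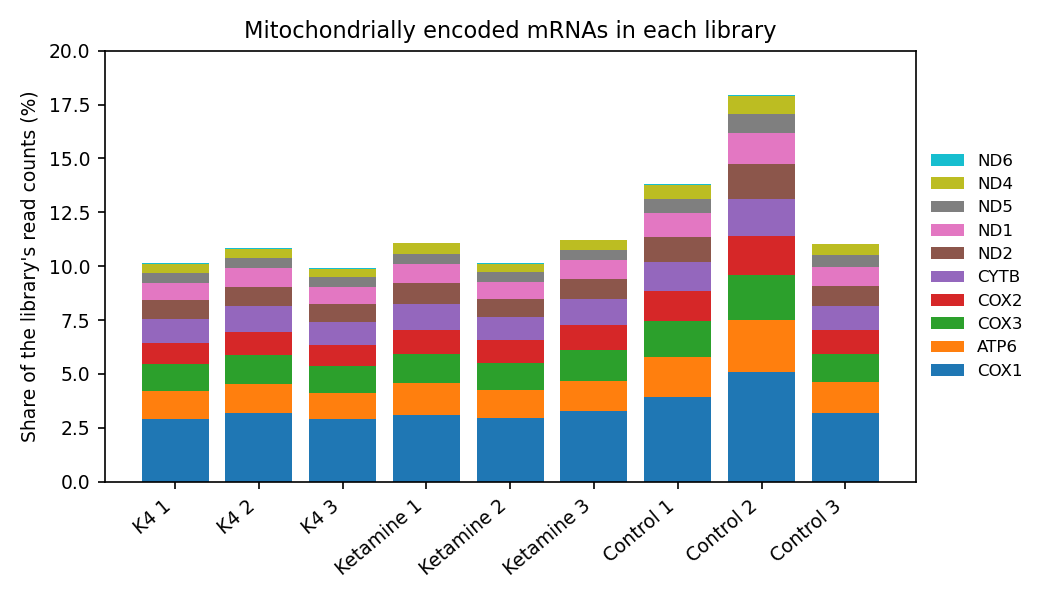
Share of each library's read counts (%, vertical axis) taken by each of the 10 genes, stacked, for 3 K4, 3 Ketamine and 3 Control libraries. COX1 is the thickest layer in every bar, ND6 is hardly visible, and the bars reach 9.91% to 10.8% in K4, 10.1% to 11.2% in Ketamine and 11.04% to 17.9% in Control.

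Markers of brain cell types also differed between the libraries. The summed level of 8 astrocyte markers was 2838 to 3172 CPM in K4, 2690 to 2850 CPM in Ketamine and 3189 to 5020 CPM in Control, with Control 2 at the top. The summed level of 8 neuronal markers was 4988 to 5453 CPM in K4, 5289 to 5374 CPM in Ketamine and 4222 to 5394 CPM in Control, with Control 2 at the bottom. By edgeR's quasi-likelihood test (adjusted p below 0.05), which called 6.07% of all genes tested in K4 against Control and 16.7% in Ketamine against Control, 2 of the 8 astrocyte markers fell after K4 and 5 fell after ketamine; 1 of 5 and 4 of 5 markers of oligodendrocyte precursors fell, as did 1 of 6 and 3 of 6 of microglia and 3 of 7 and 3 of 7 of endothelial and mural cells. Of 8 neuronal markers 1 rose after K4, and 2 rose and 1 fell after ketamine. Of 7 oligodendrocyte markers 1 rose after K4 and 0 after ketamine, and of 5 striatal markers 2 rose after K4 and 1 after ketamine. No marker of meninges, choroid plexus or blood was called by edgeR, DESeq2 or limma in either comparison, with 1 of meninges at an unadjusted p below 0.05 after K4. Summed over 5 genes, meningeal markers had 49.6 to 194 CPM in K4, 118 to 176 CPM in Ketamine and 67.0 to 109 CPM in Control. Summed over 4 genes, blood markers had 119 to 220 CPM in K4, 82.7 to 101 CPM in Ketamine and 106 to 202 CPM in Control. For both sums Ketamine lay clear of Control, while K4 overlapped it. Ttr and Folr1, defining markers of choroid plexus, had no count in at least 1 library. An offset for each library's length trend left 1.91% and 7.41% of all genes called. With it, 1 astrocyte marker fell after K4 and 2 after ketamine, as did 1 and 2 markers of oligodendrocyte precursors. Falls were called for 0 and 2 markers of microglia and for 2 and 3 of endothelial and mural cells. No neuronal marker rose, 1 neuronal marker fell after ketamine, and 1 striatal marker rose after K4. The part of cell composition in the mitochondrial shares was not tested.

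Per unit length the genes spanned a wide range. TPM, a deposited unit that divides by transcript length and has the same total in each library, placed ATP6, a membrane subunit of the ATP synthase proton channel, and COX1, the catalytic core of cytochrome c oxidase, at the top. ATP6 had a level of 39020, 40152 and 37745 TPM in K4, 43720, 37725 and 39890 TPM in Ketamine, and 54282, 64696 and 45095 TPM in Control. COX1 had a level of 38814, 41362 and 38517 TPM in K4, 39636, 38546 and 41609 TPM in Ketamine, and 49494, 59431 and 42697 TPM in Control. The ranges of this pair overlapped within each group, so their order is not resolved. For both genes every Control library stood above every drug library on this scale.

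COX3 and COX2, the other subunits of this oxidase that are encoded in the organelle, followed with mean levels of 33093 and 30267 TPM in K4, 33740 and 31986 TPM in Ketamine, and 41081 and 40844 TPM in Control. COX3 lay above COX2 without overlap in K4, while their ranges overlapped in Ketamine and Control. CYTB, the haem-carrying core of complex III, came next at 20409 ± 620 TPM in K4, 20358 ± 896 TPM in Ketamine and 23346 ± 3980 TPM in Control (SD, n = 3 each). In the drug groups CYTB stood clear above ND1, a membrane subunit near the ubiquinone site of complex I, which averaged 17533 TPM in K4 and 17873 TPM in Ketamine. In Control the same pair had means of 23346 TPM for CYTB and 23262 TPM for ND1 and could not be ordered.

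Subunits of the membrane arm of complex I had the lowest mean levels of the set. ND2 averaged 17044 TPM in K4, 17277 TPM in Ketamine and 22836 TPM in Control, and its range overlapped that of ND1 in each group. ND4 averaged 6323 TPM in K4, 6436 TPM in Ketamine and 9078 TPM in Control. ND5 averaged 5011 TPM in K4, 5013 TPM in Ketamine and 7486 TPM in Control, below ND4 without overlap in both drug groups but with overlap in Control. ND6 was last in all 9 libraries, with 734, 733 and 692 TPM in K4, 795, 696 and 768 TPM in Ketamine, and 1147, 1318 and 969 TPM in Control. The highest mean level over all libraries, that of ATP6, was 51.2 times the lowest, that of ND6. Levels after poly(A) selection also depend on how well each mRNA is captured, and that part was not tested.

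**Figure D2:**
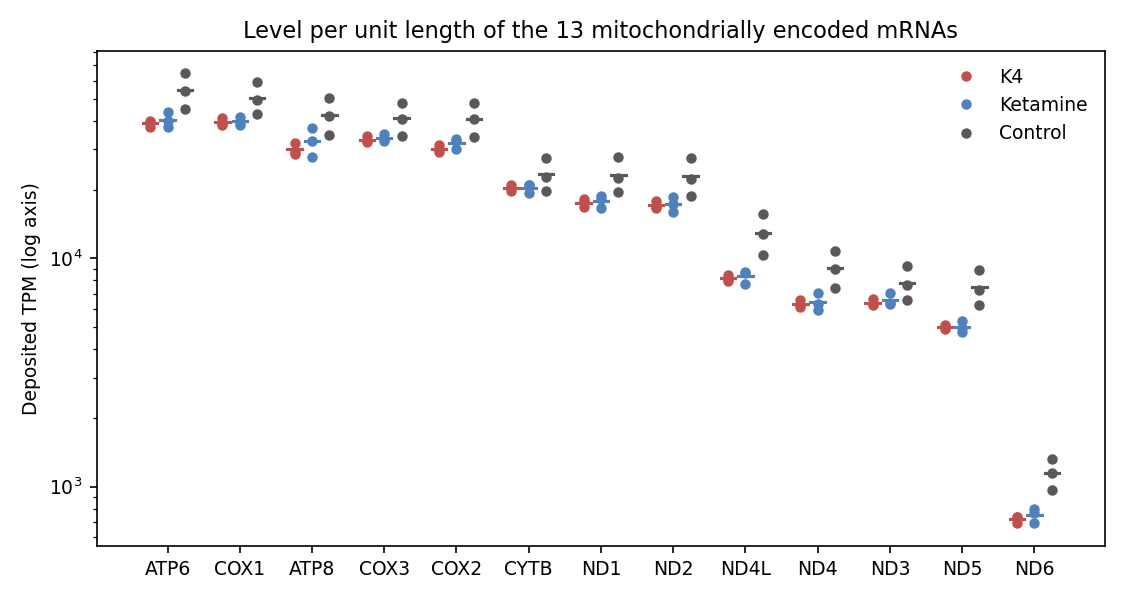
Deposited TPM (log axis) of the 13 mitochondrially encoded mRNAs, ordered by their Control mean; points are libraries and bars group means, with K4, Ketamine and Control from left to right. ATP6 and COX1 lead, ND6 is lowest at 692 to 1318 TPM, and the drug points lie below the Control mean for every gene.

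Counting by reads instead of length, COX1 was the most counted gene of the whole table in all 9 libraries, and ND6 ranked between 286 and 1064. The other 8 genes held ranks 2 to 10 in all libraries. Because ND6 shares its locus with RNA read from the other strand, and the strand setting of the counting is not given in the sources used here, its counts may hold reads of neighbouring transcripts. Nuclear copies of mitochondrial DNA make the counts of all the genes uncertain to an unknown degree.

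K4 against Control asks what differed 7 days after K4 was stopped. All 10 genes were lower after K4, with log2 fold changes from −0.87 (ND6) to −0.40 (CYTB) and a median of −0.63, against a median of −0.0046 over the 18047 genes tested. The 5 complex I subunits had log2 fold changes of −0.87 for ND6, −0.78 for ND5, −0.72 for ND4, −0.63 for ND2 and −0.61 for ND1. COX2 was at −0.63, COX1 at −0.55 and COX3 at −0.51, while ATP6 was at −0.69. Standard errors were 0.16 to 0.18. They hold spread between libraries that the genes share, so they do not measure how well the genes are ordered among themselves.

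ND5, the subunit at the far end of complex I's membrane arm, had 4407, 4558 and 4178 CPM in K4 libraries 1 to 3, 4837, 4191 and 4535 CPM in Ketamine libraries, and 7045, 10017 and 5544 CPM in Control libraries. Each drug library was below each Control library. CYTB had 10954, 11939 and 10559 CPM in K4, 11805, 10650 and 11952 CPM in Ketamine, and 13653, 19396 and 10955 CPM in Control. Control 3 lay within the drug libraries for CYTB, so both drug groups overlapped Control. ND6 had 179, 189 and 168 CPM in K4, 204, 174 and 200 CPM in Ketamine, and 314, 420 and 244 CPM in Control, again with every drug library below every Control library.

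COX1 had 28144, 31752 and 27789 CPM in K4, 30306, 28716 and 32191 CPM in Ketamine, and 40347, 56390 and 31986 CPM in Control. Its K4 libraries all lay below Control, although K4 2 came close to Control 3, and Ketamine 3 was above Control 3. ATP6 had 12471, 13586 and 12003 CPM in K4, 14735, 12388 and 13603 CPM in Ketamine, and 19505, 27057 and 14891 CPM in Control. For ATP6 no drug library reached Control. On this scale 8 of the 10 genes had no overlap between K4 and Control, all except COX3 and CYTB; over all genes tested, 27.5% had no overlap and 14.2% had none with K4 lower, and nothing is read from the count.

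All 10 genes passed the filter on low counts. In the edgeR fit over all genes, 6.07% of the 18047 genes were called in K4 against Control (3.80% lower and 2.27% higher), at a Benjamini-Hochberg adjusted p below 0.05, and 5 of the 10 genes were among them; because these genes were chosen from this contrast, nothing is read from that count. The Control spread sets the size of the difference: without Control 2 the median log2 fold change was −0.37, and without Control 3 it was −0.79. All 10 remained lower in each of the fits that left out 1 library.

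Ketamine against Control gave values close to those of K4, against the same Control libraries. All 10 genes were lower after ketamine, from −0.76 (ND6) to −0.36 (CYTB) on the log2 scale, with a median of −0.55 against −0.0023 over all genes tested. Within complex I the log2 fold changes were −0.76 for ND6, −0.74 for ND5, −0.65 for ND4, −0.56 for ND2 and −0.54 for ND1. In complex IV they were −0.51 for COX2, −0.50 for COX1 and −0.44 for COX3, and ATP6 was at −0.59.

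Ketamine and Control did not overlap for 5 of the 10 genes, namely ND1, ND4, ND5, ND6 and ATP6. Over all genes tested, 35.0% had no overlap in this comparison and 18.1% had none with Ketamine lower. The edgeR fit called 16.7% of all genes tested in this comparison (9.75% lower and 6.95% higher) and 4 of the 10 genes, a count from which again nothing is read. Without Control 2 the median log2 fold change was −0.28, and without Control 3 it was −0.71.

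**Figure D3:**
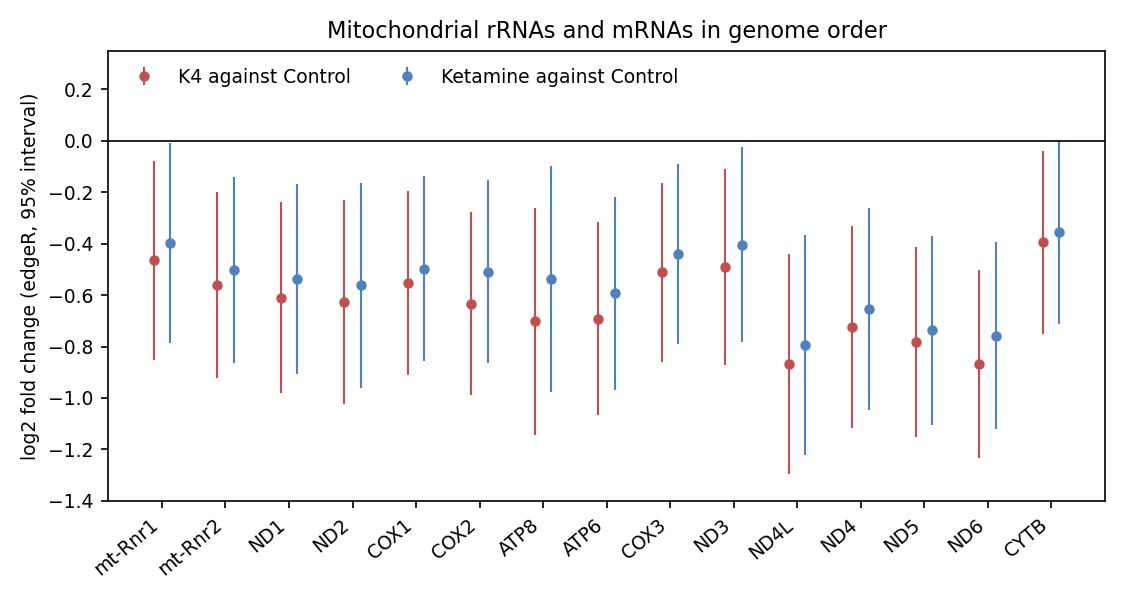
Fitted log2 fold changes with 95% intervals for K4 against Control and Ketamine against Control, for the mitochondrial rRNAs and mRNAs in the order of the mitochondrial genome. All points lie below 0; ND4L, ND4, ND5 and ND6 sit lowest as neighbours and CYTB, which follows them, sits highest of the mRNAs.

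K4 against Ketamine asks whether the drugs differed, although they were given by different routes and at doses that are not stated. The log2 fold changes of the 10 genes lay between −0.12 (COX2) and −0.04 (CYTB) with a median of −0.07, and the 95% intervals over the 10 genes reached from −0.48 to 0.33. The K4 and Ketamine libraries overlapped for every one of the 10, while 17.8% of all genes tested had no overlap and 8.29% had none with K4 lower. In this comparison edgeR called 0.00% of all genes tested, and 0 of the 10; 1648 genes had an unadjusted p below 0.05 (none of the 10), DESeq2 called 64 genes and limma on log2 FPKM called 0. Differences as large as those intervals allow were not detectable here.

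The genes did not all differ by the same amount, and this can be read within a library, where scaling between libraries plays no part. Each gene was expressed as a percentage of the counts in all 13 mitochondrially encoded protein genes, the 10 above plus ND3, ND4L and ATP8. CYTB made up 10.6%, 10.5% and 10.5% of this pool in K4 libraries 1 to 3, 10.3%, 10.4% and 10.3% in Ketamine libraries, and 9.08%, 9.21% and 9.32% in Control libraries. CYTB thus took a larger part of the pool in every drug library than in any Control library, a log2 difference of 0.20 for K4 and 0.16 for Ketamine. Leaving out any 1 library kept these differences between 0.19 and 0.21 for K4 and between 0.15 and 0.17 for Ketamine.

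ND5 made up 4.28%, 4.00% and 4.17% of the pool in K4, 4.20%, 4.08% and 3.91% in Ketamine, and 4.68%, 4.76% and 4.72% in Control. ND5 therefore took a smaller part in every drug library, with log2 differences of −0.19 for K4 and −0.22 for Ketamine. ND6 made up 0.174%, 0.166% and 0.167% in K4, 0.177%, 0.170% and 0.172% in Ketamine, and 0.209%, 0.199% and 0.207% in Control, a log2 difference of −0.28 for K4 and −0.25 for Ketamine. ND4 showed the same order, with a mean of 3.94% in K4, 3.93% in Ketamine and 4.31% in Control, and no overlap between either drug group and Control.

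Taking the ratio of CYTB to ND5 alone, 100 counts of ND5 went with 249, 262 and 253 counts of CYTB in K4, with 244, 254 and 264 in Ketamine, and with 194, 194 and 198 in Control. The Control libraries were almost alike in this ratio, and their mitochondrial share ran from 11.04% to 17.9%. Ketamine 3, whose share was above that of Control 3, had the highest ratio. The length slopes given above also differed between Control and drug libraries. The parts of mitochondrial share and of length in this ratio were not tested. Per 100 counts of ND1 there were 139, 138 and 141 counts of CYTB in K4, 137, 139 and 133 in Ketamine, and 121, 119 and 121 in Control. Per 100 counts of ND1 there were 55.9, 52.8 and 55.7 counts of ND5 in K4, 56.0, 54.8 and 50.6 in Ketamine, and 62.2, 61.7 and 61.0 in Control. CYTB was therefore high and ND5 low in the drug libraries also against ND1, whose own part of the pool overlapped between all groups.

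**Figure D4:**
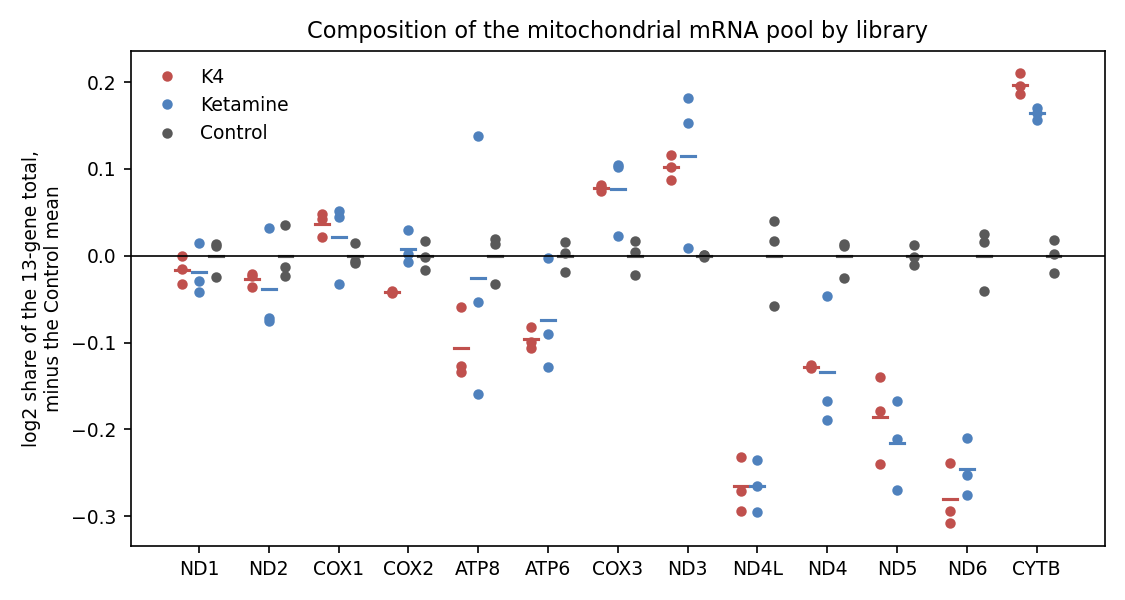
Share of each gene in the counts of the 13 mitochondrially encoded protein genes, as log2 minus the mean of the Control libraries, by library and in genome order; bars are group means. CYTB lies above Control in all 6 drug libraries (mean 0.20 for K4 and 0.16 for Ketamine), and ND4L, ND4, ND5 and ND6 lie below.

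Of the other genes examined, COX3 made up a mean of 11.7% in K4, 11.7% in Ketamine and 11.1% in Control, higher than Control without overlap in both drug groups. COX1 made up 27.6% in K4, 27.3% in Ketamine and 26.9% in Control, and only its K4 libraries were clear of Control. ATP6 made up 11.9% to 12.1% in K4, 11.7% to 12.8% in Ketamine and 12.7% to 12.97% in Control, and COX2 made up 9.36% in K4, 9.69% in Ketamine and 9.64% in Control; for both genes K4 was below Control without overlap while Ketamine overlapped it. ND1 and ND2 overlapped Control in both drug groups. Of the 13 genes, 11 had no overlap between K4 and Control (4 higher and 7 lower) and 7 had none between Ketamine and Control (3 higher and 4 lower). Between K4 and Ketamine only CYTB, higher in K4, and COX2, lower in K4, had none. A larger part for some genes leaves less for the others. The 13 genes are therefore not separate observations, and nothing is read from these counts.

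The transcript length implied by the ratio of counts to FPKM was about 2086 bases for ND5, 592 for ND6 and 1303 for CYTB, and the part of length in the composition of the pool was not tested. With the length offset the 10 genes were still lower, with a median log2 fold change of −0.73 for K4 and −0.68 for Ketamine.

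The 10 genes varied together across libraries. Over the 9 libraries, the Pearson correlation of log2 CPM between pairs of them was 0.91 to 0.999 in 45 pairs, with a median of 0.985, a description in which all pairs share the same libraries and the same scaling. Among 13073 genes outside the mitochondrial genome, the 6 whose log2 CPM was most like the mean of the 10 were Rftn2 (r = 0.989), Atp1b2 (0.985), Gpm6b (0.984), Taf4 (0.978), Tspan12 (0.975) and S1pr1 (0.974). Atp1b2, a beta subunit of the sodium pump, had 438, 436 and 424 CPM in K4, 453, 408 and 440 CPM in Ketamine, and 510, 640 and 459 CPM in Control. Gpm6b, a membrane proteolipid, had 1034, 1094 and 1019 CPM in K4, 1047, 1012 and 1057 CPM in Ketamine, and 1315, 1666 and 1184 CPM in Control. Both followed the order seen in the 10 genes, with Control 2 highest and Control 3 lowest of its group.

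Other products of the mitochondrial genome come from the same long transcripts and the same libraries, so their values are also given as a description without a test. ND4L, a small complex I subunit whose coding sequence overlaps that of ND4 on the same mRNA, had 1162 ± 75.9 CPM in K4, 1225 ± 103 CPM in Ketamine and 2122 ± 691 CPM in Control (SD, n = 3). Its log2 fold change was −0.87 for K4 and −0.79 for Ketamine, and every drug library was below every Control library. In the pool of 13 genes ND4L differed from Control by −0.27 on the log2 scale in both drug groups, about as far as ND6. Per 100 counts of ND4 there were 27.4, 27.8 and 28.6 counts of ND4L in K4, 26.4, 28.1 and 29.7 in Ketamine, and 30.8, 31.3 and 30.0 in Control, so ND4L was also lower relative to ND4 itself in all drug libraries.

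ND3, a further complex I subunit, had log2 fold changes of −0.49 for K4 and −0.40 for Ketamine. Within the pool ND3 went the way of CYTB and COX3, with a mean of 1.01% in K4, 1.02% in Ketamine and 0.938% in Control and no overlap with Control. ATP8, which shares its mRNA and part of its sequence with ATP6, had log2 fold changes of −0.70 for K4 and −0.54 for Ketamine. Reads in overlapping coding sequences can be split between the partners in ways the sources do not state.

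The ribosomal RNAs of the mitochondrion, mt-Rnr1 and mt-Rnr2, are transcribed ahead of ND1. Their counts together were 7.89%, 8.57% and 7.87% of the counts of the 10 genes in K4, 7.57%, 8.50% and 8.20% in Ketamine, and 7.79%, 7.74% and 7.84% in Control. The K4 libraries lay just above Control without overlap, while Ketamine overlapped Control. The log2 fold changes were −0.56 for K4 and −0.50 for Ketamine in mt-Rnr2, and −0.47 for K4 and −0.40 for Ketamine in mt-Rnr1. The libraries were made by poly(A) selection, which captures rRNAs and transfer RNAs poorly, so these levels are not those in the tissue.

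Among the 22 mitochondrial transfer RNA genes, the median log2 fold change was −0.57 for K4 and −0.40 for Ketamine, with 4 and 3 of the 22 above 0. Trne, which lies between ND6 and CYTB, had 8.91, 8.59 and 7.87 CPM in K4, 9.69, 7.34 and 9.40 CPM in Ketamine, and 15.9, 21.2 and 11.5 CPM in Control. All drug libraries were below all Control libraries, and the log2 fold change was −0.93 for K4 and −0.87 for Ketamine. Transcripts this short may be counted from fragments of neighbouring mRNAs.

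Nuclear genes for subunits of the same complexes, where called, went in the opposite direction. Most of these calls were lost with the length offset. Of 74 nuclear subunits of complexes I, III, IV and V, 12 rose after K4 and 41 after ketamine, and none fell. Over all genes tested, 2.27% and 6.95% were called higher. The median log2 fold change of the 74 was 0.15 for K4 and 0.26 for Ketamine. Cyc1, the cytochrome c1 partner of CYTB in complex III, had 209 ± 33.3 CPM in K4, 183 ± 10.8 CPM in Ketamine and 121 ± 5.83 CPM in Control (SD, n = 3), and rose after K4 (log2 fold change 0.79, edgeR adjusted p = 0.00268) and after ketamine (0.60, edgeR adjusted p = 0.00195). It kept both calls in all 9 fits that left out a library and with the length offset. With the length offset 1 of the 74 rose after K4 and 5 after ketamine. Over all genes 1.91% and 7.41% were then called, in either direction. Median log2 fold changes by complex then ran from 0.0076 (I) to 0.0609 (IV) for K4, against 0.0067 over all genes. For Ketamine they ran from 0.0685 (I) to 0.1245 (III), against 0.0267 over all genes. Against Control, 3 of 36 nuclear complex I subunits rose after K4 and 17 after ketamine, beside 2.27% and 6.95% of all genes called higher. With the length offset 0 and 1 of the 36 rose. Ndufa2 had log2 fold changes of 0.34 and 0.42 (edgeR adjusted p = 0.045 and 0.00799), a call lost with the length offset (adjusted p = 0.23 and 0.131).

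The mitochondrially encoded mRNAs were also set against their nuclear partners in each complex, as a description without a test. In complex I the summed TPM of the 7 mitochondrially encoded subunits was 11.5, 11.9 and 10.98 times that of 36 nuclear subunits in K4, 12.3, 9.94 and 11.7 times in Ketamine, and 18.7, 26.3 and 14.4 times in Control. In complex III the ratio of CYTB to 9 nuclear subunits was 9.66, 10.1 and 9.51 in K4, 10.3, 8.75 and 9.95 in Ketamine, and 14.7, 20.1 and 11.5 in Control. In complex IV the means were 19.8 in K4, 19.6 in Ketamine and 33.5 in Control, and in complex V they were 11.7 in K4, 12.04 in Ketamine and 20.97 in Control. Every Control library was above every drug library in all of these ratios, and the ratio does not depend on the scaling between libraries. Most genes in the upper sums were chosen for their change in these libraries, so nothing is read from this separation. The part of each library's length trend in the ratios was not tested.

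**Figure D5:**
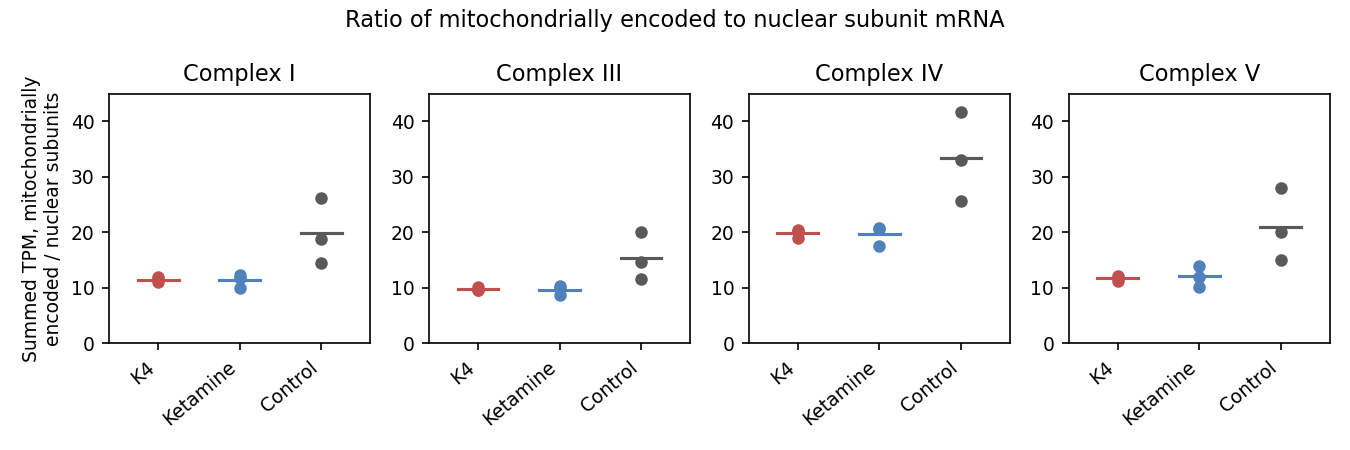
Ratio of the summed TPM of mitochondrially encoded subunits to that of nuclear subunits for complexes I, III, IV and V; points are libraries and bars group means, with K4, Ketamine and Control from left to right. All drug points lie below the Control points in each complex, for complex I at 9.94 to 12.3 in the drug libraries against 14.4 to 26.3 in Control.

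Lists of nuclear genes without an edgeR call in K4 against Control were put together. They held 10 transcription genes, 22 of RNA processing and stability, 13 translation factors, 12 biogenesis regulators, 4 complex II subunits and 37 assembly factors. These lists were picked for having no call, so nothing is read from its absence. Of these 98 genes, 26 had an unadjusted edgeR p below 0.05, beside 23.5% of all genes tested. DESeq2 and limma on FPKM called 1 each. After ketamine Mrpl12, a ribosomal protein that also binds the mitochondrial RNA polymerase, rose (log2 fold change 0.32, edgeR adjusted p = 0.0115), as did Grsf1, which binds mitochondrial RNA in granules (0.21, edgeR adjusted p = 0.0214), and Slirp, a partner of the mRNA-stabilising factor Lrpprc (0.33, edgeR adjusted p = 0.0405). These were 2 of 10 transcription genes, counting Mterf4, and 2 of 22 RNA processing genes. Over all genes 6.95% were called higher and 16.7% in either direction. With the length offset only the Grsf1 call remained of these (log2 fold change 0.23, adjusted p = 0.0386); Mrpl12 was at 0.26 (adjusted p = 0.0651) and Slirp at 0.36 (adjusted p = 0.0514). The Slirp call held in 1 of the 9 fits that left out a library. After ketamine 1 of 13 translation factors and 2 of 4 complex II subunits also rose, and of 37 assembly factors 7 rose and 1 fell. With the length offset 1 translation factor and 0 complex II subunits rose, and of the assembly factors 2 rose and 1 fell. Over all genes 7.41% were then called.

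Genes for the upkeep and number of mitochondria were mixed. Of 12 genes of mitochondrial DNA maintenance, 1 fell after K4, and 2 fell and 1 rose after ketamine. Over all genes tested, 3.80% were called lower and 2.27% higher after K4, and 9.75% lower and 6.95% higher after ketamine. These shares also stand beside the counts of biogenesis regulators below, and nothing is read from the counts of either list. Rrm2b, a ribonucleotide reductase subunit that supplies nucleotides for mitochondrial DNA, fell after K4 (log2 fold change −0.48, edgeR adjusted p = 0.0327) and after ketamine (−0.59, edgeR adjusted p = 0.00513), also with the length offset; the K4 call held in 3 of the 9 fits that left out a library. Of 12 biogenesis regulators 3 fell and 1 rose after ketamine, and Ppargc1b, a coactivator of mitochondrial biogenesis, fell (−0.65, edgeR adjusted p = 0.00359), also with the length offset. With the offset 2 of the 12 rose and 1 fell, and the calls of Gabpa (adjusted p = 0.231) and Esrrg (0.367), which had fallen, were lost. Of 23 genes of mitochondrial content and import, 2 rose after K4, and 7 rose and 1 fell after ketamine; Tomm40, the import channel, had log2 fold changes of 0.28 and 0.35 (edgeR adjusted p = 0.0401 and 0.00684). The K4 call of Tomm40 held in 3 of the 9 fits that left out a library and was lost with the length offset (adjusted p = 0.133), under which 0 genes of the list rose after K4, and 3 rose and 1 fell after ketamine. Of 75 mitochondrial ribosomal proteins tested, 4 rose after K4 and 22 after ketamine, against 0 and 4 with the length offset. Beside the counts of this list and of the import list without the offset, 2.27% of all genes were called higher for K4 and 6.95% for Ketamine. With the offset 1.91% of all genes were called for K4 and 7.41% for Ketamine, in either direction. Between K4 and Ketamine, edgeR, DESeq2 and limma called 0 of these 281 nuclear genes, of which 31 had an unadjusted p below 0.05. Such a p was found for 9.13% of all genes tested.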

How the data were processed

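RNA was extracted with RNeasy plus universal kits and libraries were made with a stranded mRNA kit, per the labels' protocols. The submitters' processing notes name build rn6 and the tools bcl2fastq 2.20.0, Trimmomatic, HISAT2 2.1.0 and StringTie 2.1.3b, without order or role. Raw counts for each gene, and FPKM and TPM, were deposited by the authors for all 9 libraries; which tool counted, and with which strand setting, is not given in the sources used here. The gene table holds no coordinates, and no mitochondrial sequence was used here.

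Counts were fitted in R 4.3.3 with edgeR 4.0.16 (TMM, filterByExpr with a minimum count of 10 and a minimum total of 15, robust quasi-likelihood F test, 3 groups, all 9 libraries). That left 18047 genes, with 12287 of 37991 having no count at all, and a common biological coefficient of variation of 10.2%. A gene was called where its p, adjusted by Benjamini-Hochberg over all 18047, was below 0.05. DESeq2 1.42.0, limma 3.58.1 on log2(FPKM + 1) and log2(FPKM + 0.1) for genes with a mean FPKM of at least 1, other scalings, no filter, a replicate block, a length offset and leaving out each library were alternatives. The test was tried on simulated data. Totals of 27122207 to 42731004 counts make counting error small for these genes, so library spread limits precision.

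The 10 genes, the gene lists and the comparisons were chosen with earlier results of these data known. For each list and comparison, up to 4 called genes with the smallest p qualified for naming, or, without a call, the gene of smallest p; only part of these is printed. Of 309 list entries 305 matched a gene; the unmatched are alternative spellings of the 2 rRNAs, Sco2 and Pet117.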

Additional observations from a re-analysis of the deposited data

How the results depend on the processing

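All 10 genes stayed lower after each drug, and the median log2 fold change of the 10 ran from −0.79 to −0.37 for K4 against Control and from −0.71 to −0.28 for Ketamine against Control when each library was left out, and from −0.13 to −0.03 for K4 against Ketamine. Scaling by total count alone gave medians of −0.51 (K4) and −0.43 (Ketamine) and moved the median of all genes to 0.10 in both; scaling without the mitochondrially encoded genes gave −0.62 and −0.54. Leaving out libraries gave mean shares of 10.02% to 10.5% in K4, 10.6% to 11.2% in Ketamine and 12.4% to 15.9% in Control. All 13 protein genes took 10.8% in K4, 11.4% in Ketamine and 15.05% in Control, and as a share of TPM the 10 genes took 20.9% in K4, 21.4% in Ketamine and 27.4% in Control.

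Counts of called genes moved more. For K4 against Control, 1095 genes became 344 with the length offset, 1857 by DESeq2, 663 with log2(FPKM + 1), 666 with log2(FPKM + 0.1), and 174 to 1548 without single libraries: 174 without Control 1, 239, 346 and 228 without K4 1, 2 and 3, and 721 and 698 without Ketamine 2 and 3. For Ketamine against Control, 3013 became 1337 with the length offset and 1177 to 3191 without single libraries: 1811 without Control 1, and 1177 and 1556 without Ketamine 2 and 3. For K4 against Ketamine, 0 became 6 without a filter, 64 by DESeq2, and 0 to 27 without single libraries (12 without Control 2, 27 without Ketamine 1). The cause was not tested. Of the 10 genes, between 0 and 10 were called for each drug without single libraries.

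With the replicate number as a block, edgeR called 1168, 3191 and 1 genes, and the medians of the 10 genes were −0.61, −0.51 and −0.08. Libraries with the same number correlated in their deviations at 0.0024 to 0.106, against −0.157 to 0.069 for other pairs, and not every library correlated best with its own number, so the numbers were not taken to pair the libraries.

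Limits: 3 libraries a group, a wide Control spread, unknown dose and strand setting, and overlapping or copied mitochondrial genes.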
